A study of Mus musculus with 62 samples.

Results

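The genes described are Cnn1, Actg2, Tagln, Acta2, Myl9, Lmod1, Smtn, Csrp1, Synpo2 and Fhl1, 10 of the 35046 gene symbols found in any of the 4 expression tables of the study. They were listed as smooth-muscle contractile genes, although Smtn, Synpo2, Csrp1 and Fhl1 encode cytoskeletal or LIM-domain proteins. Fhl1 and Synpo2 were also abundant in mouse skeletal muscle. The genes were chosen because their levels were higher in C2C12 cells that overexpress ChREBP than in control cells. The values of that contrast are therefore given as a description, without a test, and the comparisons in mouse muscle are the ones that bear on them independently. All 10 were found in every table.

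The study asked what ChREBP, the transcription factor encoded by Mlxipl, does in skeletal muscle, and measured mRNA in 62 libraries of 14 groups. In the chow experiment, gastrocnemius (GC) and soleus (SOL) were taken from 5 F/F and 5 ChMKO mice, 1 library per muscle and mouse. F/F mice carry a floxed ChREBP gene with exon 8 between loxP sites and no Cre. ChMKO mice carry the same floxed gene with Mck-cre, in which the muscle creatine kinase promoter drives Cre in striated muscle fibres and in heart, so that the other cells of a muscle are not targeted. The stress experiment took GC of both genotypes after normoxia (Norm), after 2 weeks of hypoxia that simulated high altitude (Hypo) or after 3 months of a high-fructose diet (HFrD), from 4 mice in each of the 6 groups. The mice were males, of 8 to 10 weeks unless the study stated otherwise, and their age after the 3 months of diet was not given. In the AAV experiment, GC of wild-type C57BL6/J mice was injected with an adeno-associated virus of serotype 9 that carried mouse ChREBP (AAV-ChREBP, n = 5) or GFP (AAV-CON, n = 5) under a CMV promoter, which is not restricted to 1 cell type, and was collected after 14 days. In the cell experiment, C2C12, a mouse myoblast line that fuses into myotubes, was transduced with a ChREBP vector (Ch-OE) or an empty vector (CON), selected with puromycin and differentiated until day 7 before collection, giving 4 libraries of each. Each C2C12 group is 1 selected line, so the effect of ChREBP and other differences between the lines cannot be told apart, and the spread between the 4 libraries of a line may be technical.

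Smooth muscle cells contract through actin and myosin filaments that are not ordered into sarcomeres, and they use their own actin isoforms, calponin, transgelin and a regulatory light chain of myosin. Many of these genes are activated by serum response factor (SRF), which binds the CArG box in their promoters together with myocardin in smooth muscle or with the actin-sensing MRTF cofactors in other cells. Immature skeletal myoblasts and activated fibroblasts also express part of the set, and in whole skeletal muscle the vessel walls are a known source of it.

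The members fall into 4 groups by role. Acta2 and Actg2 encode the smooth-muscle actins, Lmod1 encodes the leiomodin that nucleates actin filaments, and Myl9 encodes a regulatory light chain of myosin. Cnn1 (calponin 1) and Tagln (transgelin) encode actin-binding proteins of the contractile filaments. Smtn (smoothelin) and Synpo2 (myopodin) encode proteins of the actin cytoskeleton. Csrp1 and Fhl1 encode LIM-domain proteins, and Fhl1 is also abundant in skeletal muscle fibres. In GRCm38, the build of the positions in the chow table, the genes lie on 8 chromosomes, with Cnn1 at chr9:22099221-22109221 (plus strand) and Tagln at chr9:45929628-45936058 (minus strand) on chromosome 9, and with Lmod1 at chr1:135324813-135368065 and Csrp1 at chr1:135729197-135752229 on the plus strand of chromosome 1. Actg2 is at chr6:83512909-83536251 (minus), Acta2 at chr19:34240336-34255585 (minus), Myl9 at chr2:156775413-156781657 (plus), Smtn at chr11:3517522-3539654 (minus), Synpo2 at chr3:123076519-123236169 (minus) and Fhl1 at chrX:56731720-56793346 (plus).

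Promoter sequences were taken from RefSeq (GRCm38.p6) as the 250 bases before to 50 bases after each annotated start, and 10 promoters of 8 of the 10 members matched (not Tagln and Actg2). Both strands were searched for the CArG box, which holds A and T between CC and GG. A CArG box was found in 2 of the 8 members, Myl9 and Fhl1, against 1.63% of 32851 promoters. A CArG box with 1 base of its A and T stretch replaced was found in Myl9 and Acta2, against 8.5% of promoters. The following stretches are shown because they hold these matches, which are in capitals, or, for Cnn1, because the gene with the largest difference in C2C12 had none in this window. The Myl9 stretch is chr2:156775214-156775419 on the plus strand. The Fhl1 stretch is chrX:56779524-56779682 on the plus strand, before a start inside the gene. The Acta2 sites are chr19:34255438-34255467 and chr19:34255388-34255417 on the minus strand, where an annotated exon covers them, and the Cnn1 stretch is chr9:22099003-22099215 on the plus strand.
Myl9: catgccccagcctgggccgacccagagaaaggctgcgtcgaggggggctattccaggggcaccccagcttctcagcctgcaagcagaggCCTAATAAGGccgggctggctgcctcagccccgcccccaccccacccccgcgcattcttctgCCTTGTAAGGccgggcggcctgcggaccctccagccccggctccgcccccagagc
Fhl1: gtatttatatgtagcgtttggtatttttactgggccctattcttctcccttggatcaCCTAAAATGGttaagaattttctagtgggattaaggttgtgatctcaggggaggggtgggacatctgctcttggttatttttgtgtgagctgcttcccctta
Acta2 distal site: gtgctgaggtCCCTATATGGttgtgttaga
Acta2 proximal site: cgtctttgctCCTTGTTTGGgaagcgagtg
Cnn1: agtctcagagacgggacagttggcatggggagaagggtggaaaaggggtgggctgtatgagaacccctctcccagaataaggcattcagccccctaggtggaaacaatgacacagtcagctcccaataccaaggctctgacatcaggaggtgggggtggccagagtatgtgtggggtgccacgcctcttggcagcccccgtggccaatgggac

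Counted from the annotated start, the CArG box of Myl9 begins at -161 and its altered form at -99, the CArG box of Fhl1 begins at -102, and the altered forms in Acta2 begin at -84 and -34. The carbohydrate response element (ChoRE), which ChREBP binds and which holds a pair of E-boxes, was found in 0 of the 8 members and in 0.103% of promoters. The E-box CACGTG, which can form part of a ChoRE, was found in 0 members and in 7.15% of promoters, and GGAATG, the letters bound by TEAD factors, in 3 members (Lmod1, Smtn and Acta2) and in 14.7% of promoters. These matches are letters in a window and not measured binding sites. Of stretches of 50 bases in the transcripts, 0.326% in Acta2 and 0.0380% in Synpo2 occur in another gene as well, and 0 in the other 8 members, so that few reads could be split between copies.

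Levels are given in FPKM, fragments scaled by gene length and library total, and differences are differences of the group means of log2(FPKM + 1), which understate the change of genes near 0. Genes whose mean reached 0.5 FPKM in the libraries compared were tested with limma, two-sided, with Benjamini-Hochberg adjustment over all genes tested, and a call is an adjusted p under 0.05. Read numbers were not given and were inferred from the FPKM values, with the smallest step above 0 taken as 1 read. Reads per library, summed over the listed genes, were by this 14473169 to 23460511 in the stress experiment. By the ratios of low FPKM values, chow libraries held between 82.7% and 100% of the reads of the deepest library. Totals are unknown for the AAV and C2C12 tables, whose unit is not named in the sources used here and was taken as FPKM from the values. ChREBP itself moved as labelled, with Mlxipl at 0, 0.02, 0 and 0 FPKM in CON and 12.8, 13.6, 13.4 and 13.8 FPKM in Ch-OE, at 10.3 to 12.3 FPKM in AAV-CON and 52.9 to 101 FPKM in AAV-ChREBP, and lower in ChMKO than in F/F in each of the 3 stress conditions (adjusted p = 0.0065 in normoxia, with 3.15 to 3.51 FPKM against 7.76 to 10.01 FPKM). Leaving out 1 library at a time, the call in normoxia was lost in 5 of 8 fits (adjusted p up to 0.069, log2 differences of -1.20 to -1.09), without any 1 of the 4 ChMKO libraries and without 1 of the F/F libraries, and in hypoxia and on the diet it was lost in 0 of 8.

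Of the defining smooth-muscle genes, Myh11 and Myocd were at or near 0 in the C2C12 cells. Myh11, the smooth-muscle myosin heavy chain, was at 0.02, 0.03, 0.03 and 0 FPKM in CON and at 0.03, 0.03, 0 and 0.02 FPKM in Ch-OE, and Myocd, which encodes myocardin, was at 0 in CON and at a mean of 0.0025 FPKM in Ch-OE. All 5 endothelial markers were below 0.5 FPKM in both lines. Acta2, in contrast, a member that smooth muscle shares with other cells, was at 372 to 393 FPKM in CON and 582 to 606 FPKM in Ch-OE, and the 9 mural markers (smooth muscle and pericytes) summed to 173 to 183 FPKM in CON and 163 to 176 FPKM in Ch-OE, with 6 and 5 of the 9 below 0.5 FPKM on average and most of the sum from Notch3 and Pdgfrb (109 and 60.2 FPKM in CON), beside sums of 87.5 to 219 FPKM in F/F and AAV-CON muscle. In muscle, Myh11 was present in every library, at 2.82 to 18.02 FPKM in the chow experiment.

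Cnn1, Actg2 and Tagln stood apart from the other members in C2C12. Of the 11938 genes tested they had the largest differences after Mlxipl, in places 2, 3 and 4. Cnn1 was at 0.07, 0.07, 0.05 and 0.10 FPKM in CON and at 12.9, 12.3, 12.8 and 12.1 FPKM in Ch-OE. It thus went from close to 0 to a level above that of Synpo2 in every library of the Ch-OE line, with group means of 0.0725 ± 0.0206 and 12.5 ± 0.378 FPKM (SD, n = 4) and a log2 difference of 3.65. The ratio of these means was 172, but it rests on CON values that the table rounds to 2 decimals.

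Actg2, the enteric smooth-muscle actin, was at 9.16, 8.89, 8.58 and 8.52 FPKM in CON and at 66.5, 69.2, 72.8 and 73.9 FPKM in Ch-OE. Its mean was 8.03-fold higher in Ch-OE, a log2 difference of 2.87, and the groups were far apart. Tagln was at 17.4, 17.2, 16.6 and 16.9 FPKM in CON and at 118, 117, 118 and 121 FPKM in Ch-OE, 6.94-fold higher, with a log2 difference of 2.72. In these 3 genes every Ch-OE library was far above every CON library.

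Acta2, the vascular smooth-muscle actin, was the most abundant member in these cells. It was at 393, 381, 373.8 and 372 FPKM in CON and at 601, 592, 606 and 582 FPKM in Ch-OE, which is 1.57-fold higher (log2 difference 0.65). Every Ch-OE library was above every CON library by more than the range within a group. Lmod1 was low in both lines, at 0.24, 0.27, 0.32 and 0.43 FPKM in CON and at 1.05, 1.07, 0.99 and 1.00 FPKM in Ch-OE, 3.26-fold higher by the ratio of means and 0.63 on the log2 scale, or 1.46 with a pseudocount of 0.1. Myl9 was at 11.3, 10.7, 9.11 and 9.97 FPKM in CON and at 16.2, 14.8, 14.2 and 15.4 FPKM in Ch-OE, 1.48-fold higher (log2 difference 0.53). The groups did not overlap in either gene.

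The members of the cytoskeletal and LIM-domain groups differed by smaller amounts. Synpo2 was at 7.17, 8.05, 7.39 and 7.35 FPKM in CON and at 10.3, 11.6, 10.6 and 10.2 FPKM in Ch-OE (log2 difference 0.46). Smtn was at 45.9, 48.3, 43.0 and 44.5 FPKM in CON and at 56.6, 55.5, 60.1 and 55.3 FPKM in Ch-OE (log2 difference 0.32). In both genes the lowest Ch-OE library was above the highest CON library by more than the range within either line. Csrp1 was at 139, 148, 138 and 138 FPKM in CON and at 172, 180, 174 and 171 FPKM in Ch-OE (log2 difference 0.31), the smallest difference of the 10. Fhl1 was at 125, 126, 123 and 125 FPKM in CON and at 174, 177, 176 and 181 FPKM in Ch-OE (log2 difference 0.50). Fhl1 and Csrp1 were already high in control cells, at the 96.6 and 97.0 percentile of the genes in the table.

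**Figure D1:**
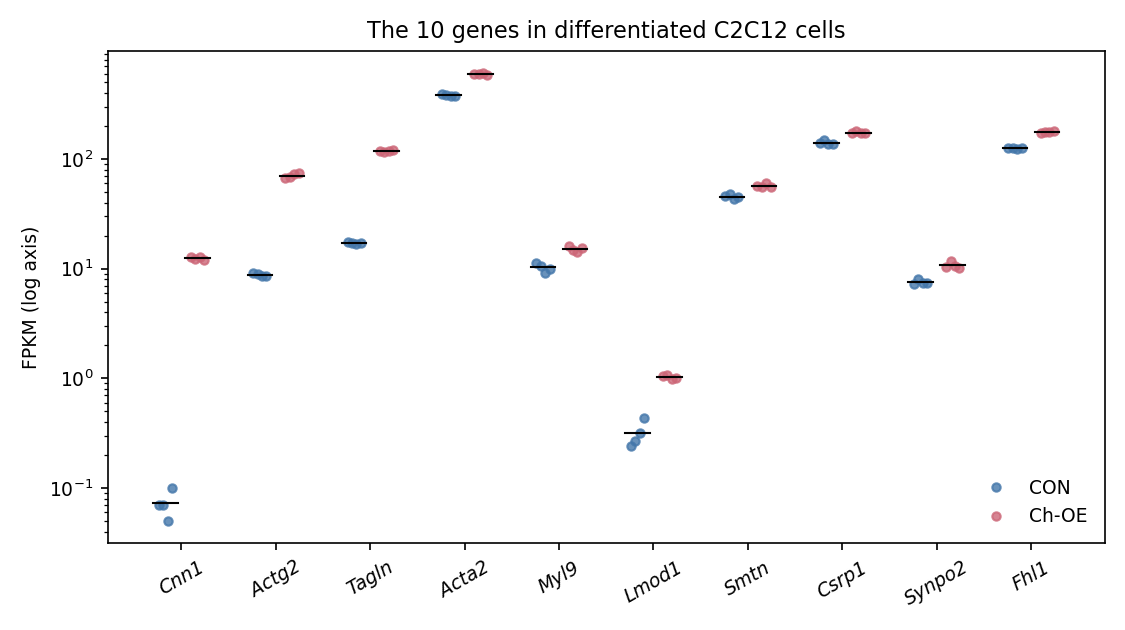
FPKM of each member (log axis) in the 4 CON and the 4 Ch-OE libraries of C2C12 cells, with points for libraries and bars for group means. The groups do not overlap in any of the 10 genes, and the distance is widest for Cnn1 (means of 0.0725 and 12.5 FPKM), Actg2 and Tagln.

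All 10 members were thus higher in Ch-OE without overlap between the lines, which the choice of the genes fixed and from which nothing is read. Over all genes tested in this contrast 31.4% did not overlap between the lines, 30.5% passed the adjusted p, and 16.4% passed it and were higher in Ch-OE. The median log2 difference was 0.58 over the members and 0.00 over all genes. The order of levels changed: in CON it ran from Acta2 (380 FPKM) through Csrp1 (141), Fhl1 (125), Smtn (45.4), Tagln (17.03), Myl9 (10.3), Actg2 (8.79), Synpo2 (7.49) and Lmod1 (0.315) to Cnn1 (0.0725), where only the neighbours Myl9 and Actg2 overlapped between libraries. In Ch-OE, Tagln (118 FPKM) and Actg2 (70.6 FPKM) came above Smtn (56.9 FPKM), Cnn1 (12.5 FPKM) came above Synpo2 (10.7 FPKM), and Fhl1 (177 FPKM) and Csrp1 (174 FPKM) no longer differed beyond their spread.

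Most members have relatives that serve skeletal or non-muscle cells, and these were measured by the same test. Of the 19 relatives tested, 9 rose and 1 fell. Among the actins, the sarcomeric Actc1 rose from 20.6 ± 1.07 to 42.9 ± 1.86 FPKM (log2 difference 1.03) and Acta1, the adult skeletal actin, from 274 to 348.1 FPKM (0.34), whereas the cytoplasmic Actb (993 and 970 FPKM) and Actg1 (1396 and 1449 FPKM) did not pass. Among the calponins Cnn3 rose by 0.10, from 349 to 374.5 FPKM (adjusted p = 0.042), and Cnn2 (128 and 132 FPKM) did not pass.

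Tagln2, the non-muscle transgelin, was at 237 and 230 FPKM and did not pass, and Tagln3 (0.28 and 0.23 FPKM) was too low to test. Among regulatory light chains, the fast skeletal Mylpf rose from 516 to 852 FPKM (0.72), more than Myl9 on the log2 scale. Myl12a (598 and 625 FPKM), Myl12b (194 and 186 FPKM) and Myl2 (3.07 and 2.65 FPKM) did not pass, and Myl7 was not listed. Both striated leiomodins rose as well, Lmod2 from 4.25 to 7.65 FPKM (0.72) and Lmod3 from 7.82 to 13.6 FPKM (0.73).

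The relatives of the remaining members moved in both directions. Synpo2l, the striated relative of Synpo2, rose from 15.4 to 25.1 FPKM (0.67) and Synpo fell by 0.33 on the log2 scale, from 62.9 to 49.8 FPKM. Csrp2 rose from 52.2 to 58.6 FPKM (0.16) and Csrp3, a marker of striated muscle, from 6.59 to 8.46 FPKM (0.32, adjusted p = 0.037). Fhl2 (25.4 and 24.1 FPKM) and Fhl3 (23.2 and 23.6 FPKM) did not pass, Fhl5 was listed at 0, and Smtnl1 (0.09 FPKM in both lines) and Smtnl2 (0.0175 and 0.0425 FPKM) were too low to test.

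**Figure D2:**
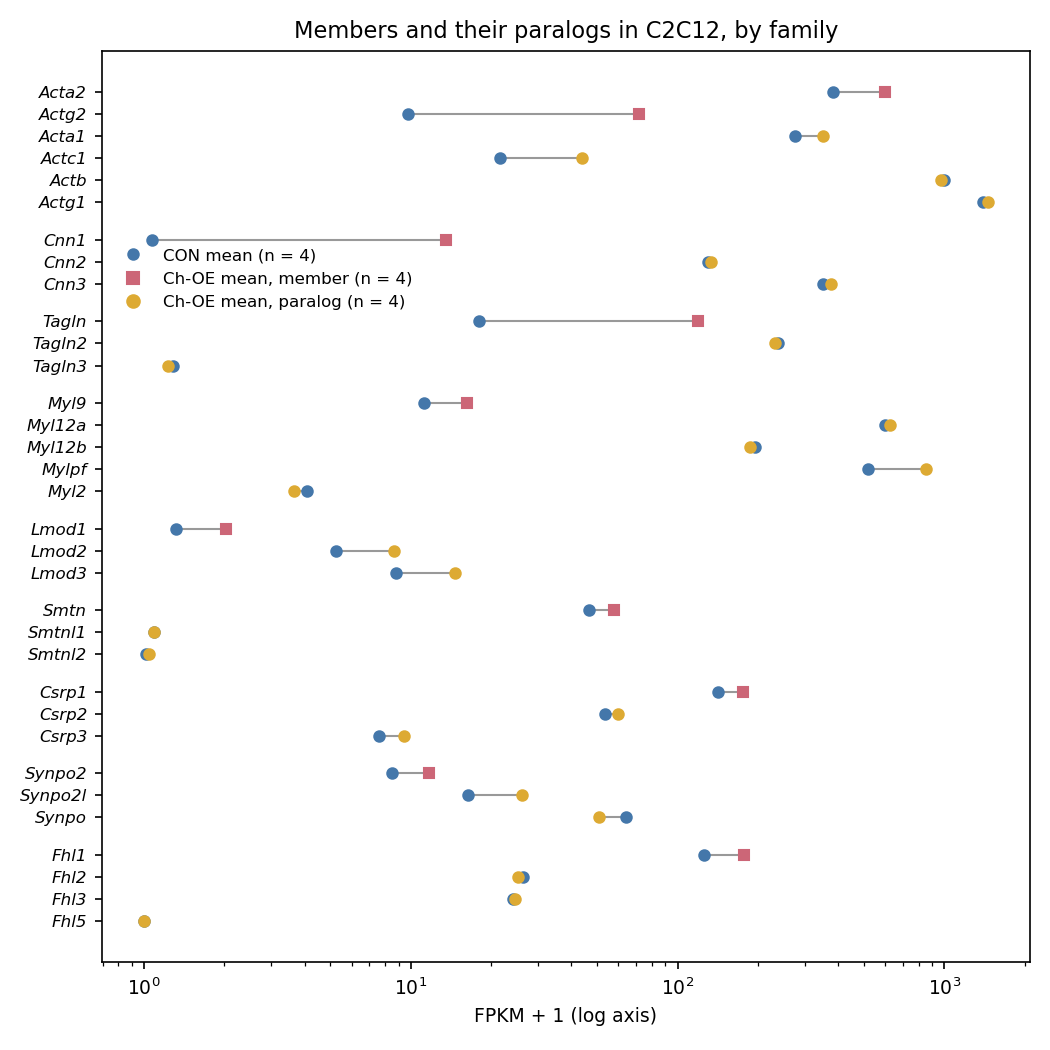
Mean FPKM + 1 (log axis, n = 4) of each member and its relatives in CON and Ch-OE C2C12 cells, grouped by gene family. Cnn1, Actg2 and Tagln show the longest lines, and the striated relatives Actc1, Mylpf, Lmod2, Lmod3 and Synpo2l also lie to the right in Ch-OE.

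The regulators of these genes were given by lists. Like the members, the lists were chosen with earlier results of these data known. Counts from this and the following lists in C2C12 are therefore a description and no independent evidence. Srf was at 17.6 ± 0.622 FPKM in CON and 18.1 ± 0.603 FPKM in Ch-OE, which did not pass (log2 difference 0.04, limma, adjusted p = 0.48). Of 26 regulators of SRF and TGF-β signalling tested, 9 rose and 5 fell, with a median of 0.04. The ligand gene Tgfb2 rose most, from 2.69 to 6.05 FPKM (0.93), followed by Tead4, a TEAD transcription factor (3.30 to 4.83 FPKM, 0.44), and the receptor gene Tgfbr1 fell by 0.41, from 15.9 to 11.7 FPKM, and Smad3, a TGF-β signal transducer, by 0.37, from 32.6 to 25.1 FPKM. The list thus moved in both directions.

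Target genes of SRF, MRTF and YAP other than the members rose in 11 of 16 and fell in 1, with a median of 0.37 against 0.00 over all genes. Ccn2 (connective tissue growth factor) rose from 13.05 to 36.8 FPKM (1.44), while Amotl2, a YAP target, fell by 0.12. Of 21 other smooth-muscle contractile and cytoskeletal genes tested (26 listed), 10 rose, 1 fell and 10 did not pass, with a median of 0.09. Pgm5 rose from 1.52 to 2.53 FPKM (0.49) and Nexn from 19.8 to 25.3 FPKM (0.34), whereas Myh9, the non-muscle myosin, fell by 0.20.

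Matrix genes of myofibroblasts rose in 3 and fell in 4 of 11 tested. Postn (periostin) rose from 5.65 to 15 FPKM (1.27) and Tnc (tenascin C) from 57.99 to 131 FPKM (1.16), and the collagen genes Col1a1 and Col1a2 fell by 0.53 and 0.16. Of 14 tested genes in the list of ChREBP and its classic targets, 4 rose and 5 fell. Beside Mlxipl (3.84), Fgf21 rose from 1.76 to 4.15 FPKM (0.90), whereas Arrdc4 fell by 0.83, from 2.02 to 0.703 FPKM, and Tkfc by 0.21.

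Markers of other cell states moved between the lines as well. Of 8 markers of differentiated skeletal muscle 5 rose and 3 fell, and their summed level was 399 to 428 FPKM in CON and 540 to 575 FPKM in Ch-OE. All 5 fibroblast markers fell, with summed levels of 1222 to 1246 FPKM in CON and 1013 to 1041 FPKM in Ch-OE. Of 9 mural cell markers only 4 were high enough to test, of which Mcam rose from 0.428 to 4.22 FPKM (1.87) and Pdgfrb fell by 0.45. The part of these shifts in the differences of the members was not tested.

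In GC of mice, ChREBP delivered by AAV did not move the members detectably. Mlxipl was 7.37-fold higher in AAV-ChREBP and was the only gene of 11027 past the adjusted p (0.00907%). None of the 9 members tested passed it, the smallest adjusted p was 1.00, and none had an unadjusted p under 0.05, which 2.89% of all genes had. Their log2 differences ran from -0.50 to 0.11, 7 above and 2 below 0, with a median of 0.03 against 0.02 over all genes.

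The members with the largest differences in C2C12 were near their control levels in the injected muscle. Cnn1 was at 0.919, 0.632, 0.465, 1.34 and 0.865 FPKM in AAV-CON and at 1.27, 0.419, 0.560, 1.605 and 0.688 FPKM in AAV-ChREBP. Tagln was at 11.7, 10.4, 11.5, 14.04 and 11.3 FPKM in AAV-CON and at 12.7, 10.1, 10.8, 18.1 and 13.3 FPKM in AAV-ChREBP, and Actg2, too low to test, at 0.593, 0.341, 0.236, 0.337 and 0.093 FPKM and at 0.519, 0.182, 0.113, 0.699 and 0.292 FPKM. The groups overlapped in all 3 genes, and the libraries numbered 7 were the highest for Cnn1 and Tagln in both groups. The 95% intervals of the log2 difference were -0.35 to 0.40 for Cnn1 and -0.17 to 0.40 for Tagln. With the replicate number as a block, 640 or 5.8% of all genes and still 0 members had an unadjusted p under 0.05. The smallest adjusted p of a member in that limma fit was 0.87. Its intervals were -0.16 to 0.21 for Cnn1 and -0.04 to 0.26 for Tagln.

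Fhl1 had the largest difference of the members in this comparison. It was at 136, 190, 37.0, 191 and 141 FPKM in AAV-CON and at 59.5, 62.2, 72.3, 161 and 104 FPKM in AAV-ChREBP, so the groups overlapped widely and 1 control library was the lowest of all 10. Its log2 difference of -0.50 ± 0.42 (SE) did not pass (limma, adjusted p = 1.00), with a 95% interval from -1.41 to 0.41, or from -1.16 to 0.16 with the replicate number as a block. The difference was -0.92 without that lowest control library and -0.34 without the highest one. Acta2 was at 27.1 ± 4.47 FPKM in AAV-CON and 29.6 ± 8.28 FPKM in AAV-ChREBP (SD, n = 5), Myl9 at 26.0 ± 2.88 and 24.7 ± 4.11, Smtn at 14.9 ± 0.586 and 15.2 ± 0.707, Csrp1 at 10.7 ± 1.07 and 11.6 ± 1.91, Synpo2 at 56.9 ± 5.48 and 59.6 ± 5.50, and Lmod1 at 1.53 ± 0.257 and 1.595 ± 0.302 FPKM. Myh11 (8.54 and 8.81 FPKM) and Srf (12.1 and 12.3 FPKM) did not pass either, and Myocd (0.117 and 0.102 FPKM) was too low to test.

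**Figure D3:**
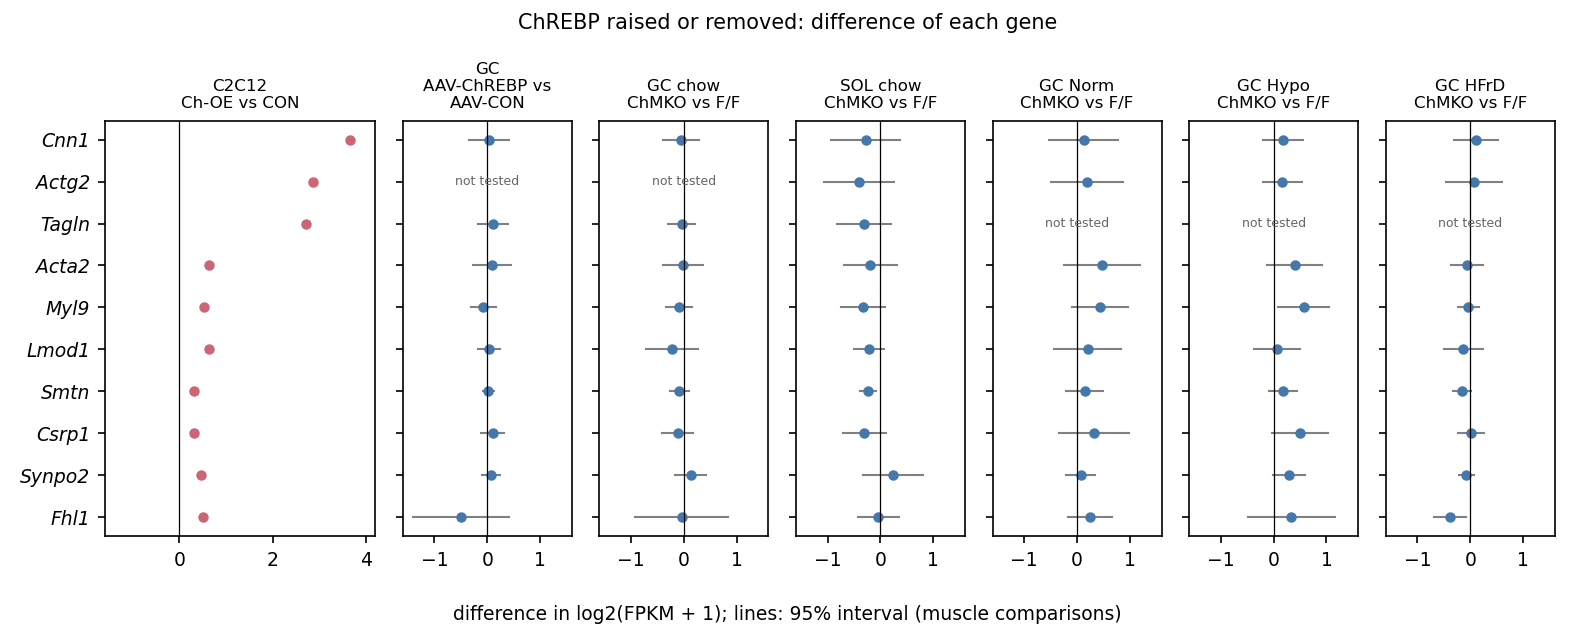
Difference in log2(FPKM + 1) of each member in C2C12 cells with ChREBP added, in GC with AAV-ChREBP, and in ChMKO against F/F muscle in 5 settings, with 95% intervals for the muscle comparisons and "not tested" where a gene was too low. The intervals are from fits without a block, and the C2C12 axis covers a wider range. The C2C12 points run from 0.31 to 3.65, while every muscle point lies between -0.50 and 0.57.

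**Figure D4:**
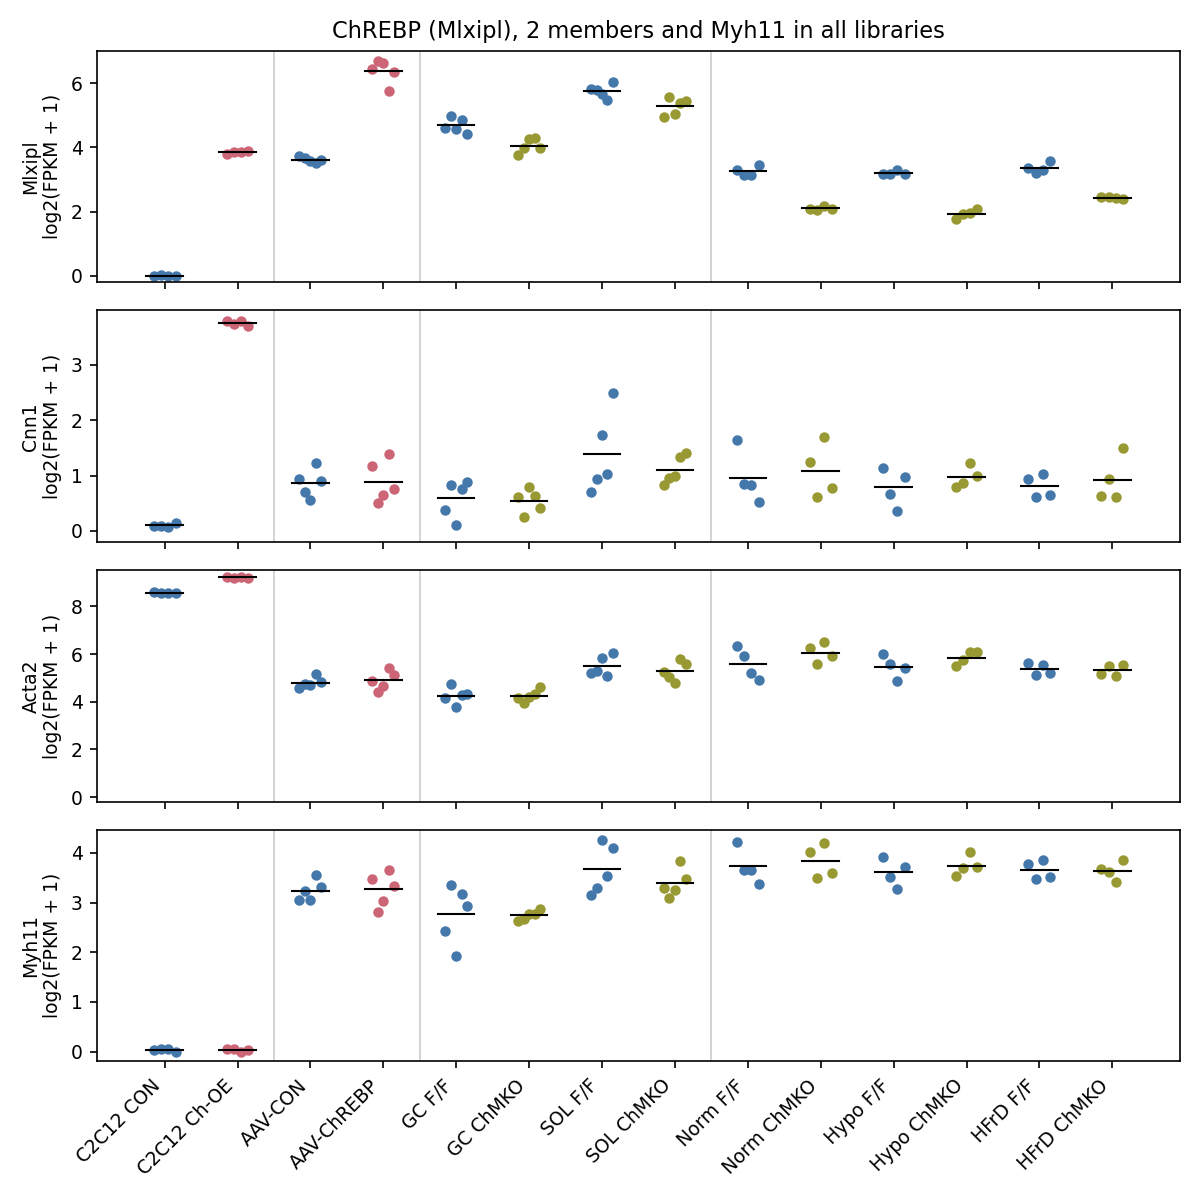
Log2(FPKM + 1) of Mlxipl, Cnn1, Acta2 and Myh11 in all 62 libraries of the 14 groups, with points for libraries (blue for controls, red for raised ChREBP, olive for ChMKO), bars for group means and vertical lines between the 4 tables, which were normalised separately. Mlxipl is high in Ch-OE and AAV-ChREBP, Cnn1 is high in Ch-OE alone, and Myh11 is at 0 to 0.03 FPKM in C2C12 but present in all muscle groups.

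Loss of ChREBP in muscle fibres was examined in GC and SOL on chow. The library of SOL from F/F mouse 71 had the extreme value of its group in several members, with Cnn1 at 4.63 FPKM and Actg2 at 5.29 FPKM, against 0.635 to 2.34 and 0.794 to 2.15 FPKM in the other 4 SOL libraries of F/F mice, and with Synpo2 at 38.7 FPKM against 88.4 to 123 FPKM. Its Lmod1, at 4.13 FPKM, lay within the 2.83 to 4.45 FPKM of the others, and none of its values met Dixon's criterion for a value far from its group. Results for SOL are therefore given with and without it. By reads inferred from the FPKM values, GC libraries held 2 to 13 reads of Actg2 and 3 to 30 reads of Cnn1, so that these 2 genes had little precision there.

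In GC, 0 of 9 members tested passed the adjusted p in ChMKO against F/F (0.0236% of all genes did) and 0 had an unadjusted p under 0.05 (4.63% of all genes). The log2 differences ran from -0.23 to 0.13, with 1 member above and 8 below 0 and a median of -0.05 against 0.01 over all genes. Lmod1 had the largest difference, at 2.00, 3.16, 3.30, 5.95 and 1.98 FPKM in F/F against 2.68, 1.69, 3.57, 2.17 and 2.55 FPKM in ChMKO. The ChMKO values lay within the F/F range apart from 1 lower library, and 1 F/F library was above all others (difference -0.23, 95% interval -0.72 to 0.26, limma, adjusted p = 1.00). Without that F/F library the difference was -0.03.

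In SOL, 0 of 10 members passed the adjusted p (0.0225% of all genes) and 1, Smtn, had an unadjusted p under 0.05, which 9.74% of all genes had. Smtn was at 24.3, 24.7, 26.0, 27.3 and 29.8 FPKM in F/F against at 23.4, 22.3, 20.4, 22.0 and 22.7 FPKM in ChMKO. All ChMKO libraries were below all F/F libraries, as in 2.05% of the genes tested, and the log2 difference was -0.24 ± 0.07 (SE, adjusted p = 0.38). Actg2 had the largest difference, at 0.794, 1.08, 2.15, 1.104 and 5.29 FPKM in F/F against 0.875, 0.684, 0.865, 1.42 and 1.65 FPKM in ChMKO, where the groups overlapped (-0.41 ± 0.30, adjusted p = 0.64). Of the 10 members 9 were lower and 1 higher in ChMKO, with a median of -0.26 against -0.02 over all genes. Without mouse 71 the median was -0.14 and the difference of Actg2 -0.11, so this single library carried much of the shift, while Smtn stayed at -0.20. Myh11 was at 12.3 ± 4.54 FPKM in F/F against 9.66 ± 2.28 FPKM in ChMKO and did not pass. The 5 endothelial markers summed to 109 to 175 FPKM (median 116) in F/F against 89.1 to 115 FPKM (median 109.6) in ChMKO and the 9 mural markers to 142 to 186 FPKM (median 174) against 135 to 162 FPKM (median 158), with overlap in both, and their part in the shift was not tested.

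**Figure D5:**
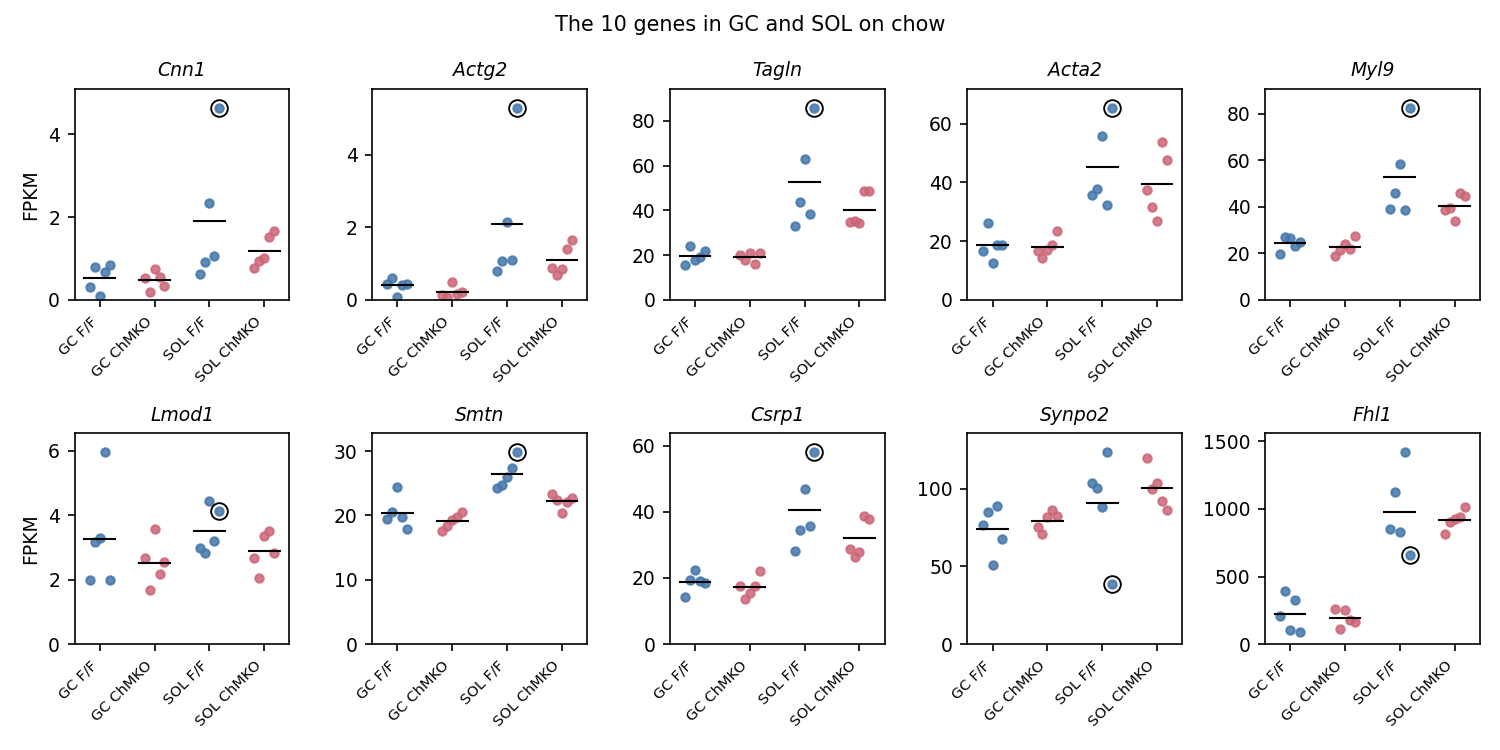
FPKM of each member in both muscles and genotypes of the chow experiment (n = 5 mice), with points for libraries, bars for means and a ring around SOL of F/F mouse 71. Within each muscle the genotypes overlap in every gene but Smtn in SOL, while SOL lies above GC for Tagln, Acta2, Myl9, Csrp1 and Fhl1.

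In the stress experiment Tagln could not be tested in any comparison, since the table lists it at 0 to 0.306 FPKM in all 24 libraries, although the GC libraries of the chow table had 15.5 to 24.1 FPKM and the AAV-CON libraries 10.4 to 14.04 FPKM. In the GENCODE M21 annotation an antisense gene, Gm48529 (chr9:45930112-45933738, plus strand), lies inside Tagln, and Pcsk7 overlaps its end by 108 bases. The cause of the low values was not tested, and they are not read as expression. The other 9 members were present there in every group.

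In normoxia all 9 members tested were above F/F in ChMKO, with log2 differences of 0.07 to 0.47 and a median of 0.20 against 0.05 over all genes, but 0 passed the adjusted p (0.00922% of all genes) and 0 had an unadjusted p under 0.05 (11.1% of all genes). Acta2, with the largest difference, was at 79.0, 58.9, 36.1 and 28.8 FPKM in F/F against at 74.5, 46.4, 89.1 and 60 FPKM in ChMKO. The last 2 of these F/F mice were the lowest of the 8 for Acta2, Myl9, Csrp1 and Synpo2, whereas the other 2 F/F mice lay within the ChMKO range for Acta2 (difference 0.47 ± 0.32, adjusted p = 0.47). Endothelial markers had summed levels of 50.5 to 104 FPKM in F/F against 87.3 to 98.5 FPKM in ChMKO, and mural markers summed to 190 to 219 FPKM and 200 to 206 FPKM. Medians were also higher in ChMKO for fibroblast (227 and 269 FPKM), tendon (17.6 and 27.5 FPKM) and differentiated muscle markers (30730 and 35779 FPKM). Adipocyte markers were lower (15.99 and 7.21 FPKM), all with overlap. The part of these cell types in the difference was not tested.

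In hypoxia the 9 members were again above F/F in ChMKO, by 0.06 to 0.57 with a median of 0.29 against 0.08 over all genes, and 0 passed the adjusted p (0.00941% of all genes). Myl9 had an unadjusted p under 0.05, as 5.27% of all genes had. It was at 68.2, 46.5, 33.2 and 37.8 FPKM in F/F against at 66.9, 54.7, 77.8 and 69.1 FPKM in ChMKO, where the first F/F mouse overlapped the ChMKO range and the others lay below it. The log2 difference was 0.57 ± 0.21 (95% interval 0.09 to 1.04, adjusted p = 0.53). Summed endothelial markers were 55.2 to 101 FPKM in F/F against 66.7 to 112 FPKM in ChMKO, and summed mural markers 179 to 217 FPKM (median 214) and 180 to 213 FPKM (median 189), and the part of vessel content in these values was not tested. In such bulk samples fewer cells of a type and less RNA per cell cannot be told apart.

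On the high-fructose diet 3 members were above and 6 below F/F in ChMKO, with a median of -0.06 against -0.01 over all genes, and 0 passed the adjusted p (0.019% of all genes). Fhl1 had an unadjusted p under 0.05, which 7.36% of all genes had. It was at 293.04, 306, 260 and 303 FPKM in F/F against at 250, 248, 243 and 162 FPKM in ChMKO. The groups did not overlap, as in 4.47% of genes, and the last of these was far below the other ChMKO mice (difference -0.38 ± 0.13, adjusted p = 0.64). Summed mural markers were 203 to 207 FPKM in F/F against 187 to 199 FPKM in ChMKO, without overlap, and their part in the values was not tested. The members thus stood above F/F in 2 settings of GC and not in the third or on chow, but whether the knockout difference itself differed between settings was also tested, in contrasts added after the data had been seen. For SOL minus GC 0 of 10 members were called (smallest adjusted p = 0.90) and 1 of 13176 genes. That fit had no block for the mouse, although both muscles came from the same mice. For hypoxia minus normoxia 0 of 9 members (1.00) and 0 of 10749 genes were called, and for the high-fructose diet minus normoxia 0 of 9 members (0.45) and 0 of 10732 genes. At an unadjusted p under 0.05 these fits had 699, 132 and 1106 genes, and 0, 0 and 1 of the members, and the counts of 0 do not set the members apart from other genes.

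Myh11, Srf and Mlxipl gave the frame for these knockout values. Myh11 was at 6.21 and 5.70 FPKM in F/F and ChMKO in GC on chow, at 12.5 and 13.5 in normoxia, at 11.4 and 12.5 in hypoxia and at 11.7 and 11.6 on the high-fructose diet, and it passed in none of these comparisons. Srf was at 20.3 and 22.9 FPKM in GC on chow, 19.7 and 20.9 in SOL, 20.6 and 23.6 in normoxia, 20.99 and 23.8 in hypoxia and 17.5 and 16.8 on the high-fructose diet, and passed in none. Mlxipl fell by 1.16 in normoxia, 1.27 in hypoxia and 0.92 on the high-fructose diet, and was at 24.9 and 15.7 FPKM in GC and 53.4 and 38.4 FPKM in SOL on chow, where it did not pass the adjusted p. Myocd was below 0.5 FPKM on average and was not tested in any of them. Apart from Mlxipl, no gene of the smooth-muscle, regulator, target, matrix and ChREBP lists passed in the AAV or the knockout comparisons.

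The comparison in which the members did differ in muscle was SOL, a slow postural muscle, against GC in F/F mice on chow. All 10 were higher in SOL and 7 passed the adjusted p, where 50.4% of all 13235 genes passed it and 37.9% passed it and were higher in SOL. This split depended on the scaling, with 5013 genes higher and 1660 lower in SOL as deposited, but 2749 higher and 3096 lower after rescaling to a common median ratio, when 6 members passed with a median of 0.79. The median log2 difference was 1.01 over the members and 0.18 over all genes. Fhl1 was at 212, 394, 103, 324 and 92.8 FPKM in GC and at 852, 1127, 830, 1418 and 656 FPKM in SOL, 4.34-fold higher (2.29 ± 0.40, limma, adjusted p = 0.00074). Every SOL library was above every GC library, although the GC libraries varied widely among mice.

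The actins and transgelin also rose. Tagln was at 15.5, 24.1, 18.03, 18.9 and 22.0 FPKM in GC and at 33.1, 43.8, 62.7, 38.2 and 85.7 FPKM in SOL (1.304 ± 0.23, adjusted p = 0.0009). Acta2 was at 16.6, 26.1, 12.5, 18.6 and 18.8 FPKM in GC and at 35.6, 37.7, 55.9, 32.4 and 65.3 FPKM in SOL (1.23 ± 0.22, adjusted p = 0.0009). Neither gene overlapped between the muscles, and mice 69 and 71 had the highest SOL values of both. Actg2 rose from 0.398 ± 0.188 to 2.08 ± 1.86 FPKM (0.98 ± 0.29, adjusted p = 0.016), from 2 to 13 inferred reads per GC library to 18 to 123 per SOL library. The column of SOL from mouse 69 is numbered 69 but its sample title gives 59, a number that a ChMKO mouse holds, while its labelled genotype is F/F, so that the pairing of this library with GC of mouse 69 is uncertain. In the fit with the mouse as a block and without mouse 69 the adjusted p of Actg2 was 0.060.

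Myl9 rose from 24.3 ± 2.98 to 52.8 ± 18.4 FPKM (1.04 ± 0.19, adjusted p = 0.0011), Csrp1 from 18.8 ± 2.92 to 40.6 ± 11.8 FPKM (1.04 ± 0.18, adjusted p = 0.00075) and Smtn from 20.4 ± 2.44 to 26.4 ± 2.22 FPKM (0.36 ± 0.09, adjusted p = 0.0071). Myl9 and Csrp1 did not overlap between the muscles and Smtn did. Rescaling the libraries to a common median ratio, which moves the median of all genes from 0.18 to -0.01, left Smtn at 0.12 (adjusted p = 0.36). Cnn1 was at 0.304, 0.784, 0.084, 0.680 and 0.845 FPKM in GC and at 0.635, 0.905, 2.34, 1.05 and 4.63 FPKM in SOL and just missed the threshold (0.79 ± 0.31, adjusted p = 0.052). Without SOL of mouse 71 the difference was 0.51 (adjusted p = 0.077). Over the alternatives the adjusted p of Cnn1 ran from 0.012 to 0.11, and it passed without SOL of mouse 57 (0.024) or of mouse 58 (0.045) and with the mouse as a block (0.035), but not with the block and without mouse 69 (0.10). Lmod1 (3.28 and 3.52 FPKM) and Synpo2 (73.98 and 91.0 FPKM) did not pass with all libraries.

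Of the 10 members 6 did not overlap between the muscles, as in 35.9% of all genes. Without SOL of mouse 71 the median was 0.78, and 8 members passed, where 51.5% of all genes passed and 39.4% passed and were higher in SOL. The member gained was Synpo2 (0.50 ± 0.16, adjusted p = 0.024). The other differences were then 1.11 for Tagln, 1.09 for Acta2, 0.87 for Myl9, 0.90 for Csrp1, 0.69 for Actg2, 0.32 for Smtn and 2.42 for Fhl1, all past the adjusted p, and 0.09 for Lmod1, which was not. Other lists moved in the same comparison. Of 24 other smooth-muscle genes 17 rose and 3 fell, with a median of 0.86, Myh10 (1.96) and the small heat-shock protein gene Hspb6 (1.85) rising most and Tpm1 (-1.65) and Synm (-1.45) falling most. Mural markers rose in 8 and fell in 1 of 9, with summed levels of 87.5 to 129 FPKM in GC and 142 to 186 FPKM in SOL, and Myh11 rose from 6.21 to 12.3 FPKM (0.90, adjusted p = 0.023), a call lost without SOL of mouse 71 (0.80, adjusted p = 0.052). Endothelial markers rose in 5 of 5, from 32.5 to 74.5 FPKM in GC to 109 to 175 FPKM in SOL. Adipocyte markers summed to medians of 8.79 FPKM in GC and 46.2 FPKM in SOL and tendon markers to 6.33 and 19.6 FPKM, with overlap. Lower in SOL were markers of differentiated skeletal muscle (38009 to 54329 against 24088 to 27842 FPKM) and of myoblasts (medians 14.8 and 6.06 FPKM, with overlap). The part of vessel density and of other cell types in the differences of the members was not tested.

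Regulators rose in 12 and fell in 3 of 24 in SOL, with Klf4 (1.39) and Elk3 (0.95) rising most and Smad3 (-0.49) and Tgfbr1 (-0.40) falling most, while Srf did not pass (20.3 and 19.7 FPKM). Targets of SRF, MRTF and YAP rose in 8 and fell in 0 of 14, led by the slow-fibre tropomyosin Tpm3 (6.23) and by Pdlim1 (3.27), and matrix genes rose in 5 and fell in 0 of 12, led by Postn (1.54) and Bgn (1.38). In the list of ChREBP and its targets 4 of 15 rose, with Mlxipl (1.07) and Acly (0.81) first, and 2 fell, Gpd1 (-2.92) and Klf10 (-0.70). Several families differed more in their fibre isoforms than in the member, with Myl2 (5.92), Csrp3 (3.44) and Lmod2 (2.88) far above Myl9, Csrp1 and Lmod1, which stood at 1.04, 1.04 and 0.14. Fhl2 rose by 3.20, from 0.765 to 14.2 FPKM, and Fhl1 by 2.29. Of these 2 genes Fhl1 had the far higher level in both muscles, at 225 and 977 FPKM.

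Hypoxia did not move the members past the threshold in either genotype. In F/F mice 0 of 9 passed in limma (0% of 10738 genes did) and 0 had an unadjusted p under 0.05 (3.84% of all genes), with 4 above and 5 below 0 and a median of -0.04 against -0.06 over all genes. Fhl1 had the largest difference, at 264, 335, 201 and 221 FPKM in Norm and 563, 154, 330 and 305 FPKM in Hypo, where 1 library was the highest and 1 the lowest of the 8 (0.29 ± 0.36, adjusted p = 1.00). Without the highest Hypo library this difference was -0.01. Myh11 and Srf did not pass (12.5 and 11.4 FPKM, 20.6 and 20.99 FPKM).

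In ChMKO mice 0 of 9 members passed (0.89% of all genes did, 27 higher and 68 lower in Hypo, and 72 and 94 after rescaling), and Synpo2 had an unadjusted p under 0.05, as 15.1% of all genes had. Synpo2 was at 73.4, 73.9, 77.2 and 66.7 FPKM in Norm and at 89.8, 84.9, 88.2 and 110 FPKM in Hypo. The groups did not overlap, as in 9.81% of genes, and the difference was 0.35 ± 0.10 (95% interval 0.13 to 0.57, adjusted p = 0.14). After rescaling the libraries to a common median ratio it was 0.38 and passed (adjusted p = 0.047). Fhl1 had the largest difference, at 321, 263, 366 and 247 FPKM in Norm and 289, 288, 529 and 505 FPKM in Hypo, with overlap (0.38 ± 0.22, adjusted p = 0.46). Leaving out 1 library at a time moved it between 0.23, without the highest Hypo library, and 0.53, without the lowest one. In the same comparison Smad3 (-0.96), Tead4 (-0.93) and Klf10 (-1.13) of the lists fell, and among the relatives of the members Csrp3 rose by 2.02, from 26.0 to 116 FPKM, and Smtnl2 fell by 0.98. Myh11 (13.5 and 12.5 FPKM) and Srf (23.6 and 23.8 FPKM) did not pass.

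The high-fructose diet was set against the normoxia group, the only chow group of that table, so that diet, the length of the experiment and any difference in age cannot be told apart. In F/F mice 0 of 9 members passed in limma (0% of 10705 genes did), and 1, Smtn, had an unadjusted p under 0.05, as 23.6% of all genes had. Smtn was at 15.7, 14.1, 9.93 and 10.8 FPKM on chow and at 9.09, 8.65, 10.1 and 8.89 FPKM on the diet, and the first 2 chow mice were above all others (-0.40 ± 0.14, adjusted p = 0.17). Myl9 had the largest difference, at 68.0, 55.5, 34.2 and 34.0 FPKM on chow and 35.3, 30.2, 35.1 and 33.1 FPKM on the diet. The same 2 chow mice carried it, and the other 2 lay within the range of the diet group (-0.45 ± 0.22, adjusted p = 0.23). Of the 9 members 8 were below and 1 above 0, with a median of -0.16 against -0.10 over all genes. Fibroblast markers summed to 176 to 379 FPKM on chow and 129 to 147 FPKM on the diet, without overlap. Endothelial markers summed to medians of 71.7 and 54.5 FPKM and tendon markers to 17.6 and 10.55 FPKM, with overlap, and mural markers to 190 to 219 and 203 to 207 FPKM. The part of these cell types in the shift was not tested. Myh11 (12.5 and 11.7 FPKM) and Srf (20.6 and 17.5 FPKM) did not pass.

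The levels of the members ranked differently in muscle and in C2C12. In GC of F/F mice on chow the order ran from Fhl1 (225 FPKM) and Synpo2 (73.98) through Myl9 (24.3), Smtn (20.4), Tagln (19.7), Csrp1 (18.8) and Acta2 (18.5) to Lmod1 (3.28), Cnn1 (0.539) and Actg2 (0.398). Neighbours among the 5 genes from Myl9 to Acta2 did not differ beyond their spread, nor did Cnn1 and Actg2. Fhl1 was at the 99.3 percentile of all genes in the table in GC and Synpo2 at the 97.8 percentile. Cnn1 in Ch-OE cells, at 12.5 FPKM, was far above any muscle library of any table, whose highest value was 4.63 FPKM, although the tables were normalised separately.

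Among GC libraries of the stress experiment 7 members were compared within groups. Genes with a mean below 1 FPKM were left out, which removed Cnn1, Actg2 and Tagln, the members with the largest differences in C2C12. Over the 24 libraries, each centred on its group mean, Pearson's r was 0.94 between Acta2 and Csrp1, 0.94 between Myl9 and Csrp1 and 0.92 between Acta2 and Myl9, and 0.26 between Lmod1 and Fhl1, the lowest pair. Fhl1 ran from 0.26 to 0.69 with the other 6. Of 9306 genes compared with the mean of 7 members, those most alike outside the set were Plxnd1 (r = 0.96), Mcam (0.95), Ckb (0.95), Coro1c (0.94) and Pam (0.93). Of 8 mural markers compared, 1 (Mcam) was among the 25 genes most alike, and the others ran from -0.37 (Abcc9) to 0.82 (Notch3), with Myh11 at 0.78. These correlations share libraries, depth and tissue sampling and are given as a description.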

How the data were processed

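Expression was analysed from 4 tables that the authors deposited, taken as FPKM per gene and sample. The names of the deposited chow and stress tables give this unit; for the AAV and C2C12 tables no source used here names it, and it was inferred from the values, whose sums differ between libraries. Per the labels and the study's methods, reads were filtered with fastp 0.18.0 and aligned with HISAT2 2.1.0; the submitters' processing notes also list Bowtie2 2.2.8, StringTie 1.3.1 and RSEM without a role, and name build 39 of the mouse genome, whereas the positions in the chow table are those of the build before it. The study tested counts with DESeq2, which was not run here because FPKM are not counts. For each comparison limma 3.58.1 (R 4.3.3) was fitted to log2(FPKM + 1), with the trend option, over genes whose mean reached 0.5 FPKM, two-sided. It was tested on simulated data in which 200 genes of at least 2 FPKM were changed and libraries varied independently. In the AAV design, 80% of genes changed by a log2 of 0.5 and 98% of those changed by 1 were recovered. So many changed genes make the adjusted threshold easier to pass than in the real AAV fit, and members below 2 FPKM were not covered. These shares are therefore not the power for the members. In the AAV and C2C12 tables genes were identified by NCBI gene ID, since the AAV symbol column differed from it in 5587 rows. The authors' own fold changes and p-values were not used. Tables were normalised separately, so tests stayed within a table.

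The members and lists were chosen with earlier results of these data known. Members are named throughout; in muscle, tests are given for members with an adjusted p or an unadjusted p under 0.05 and for the largest difference of each comparison, and from each list up to 2 called genes per direction, with Myh11, Myocd, Srf and Mlxipl always. A gene that this rule names in 1 list is not reported here. Pseudocount, filter, rescaling, left-out replicates, a replicate block and a joint fit were tried. Same-numbered AAV libraries deviated together (r of 0.21 to 0.49), but those numbered 3 and 4 were not each other's closest match, so the pairing is uncertain. A fit with these numbers as pairs was also run, and the values given are those without the block unless stated. SOL and GC of 1 mouse are paired by animal.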

Additional observations from a re-analysis of the deposited data

Results flagged for a closer look

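Values that stood far from the rest of their group were searched for in the 140 combinations of a member and a group of 4 or 5 libraries by Dixon's criterion, which chance meets in about 1 of 20 groups, and 3 were found. Csrp1 was at 147.59 FPKM in CON replicate 2 of C2C12, above the 137.82 to 138.69 FPKM of the other 3 libraries. Fhl1 was at 122.56 FPKM in CON replicate 3, below the 125.19 to 125.54 FPKM of the others. Both gaps are small beside the distance to Ch-OE. Fhl1 was at 162 FPKM in 1 ChMKO mouse on the high-fructose diet, below the 243 to 250 FPKM of the other ChMKO mice.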

How the results depend on the processing

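The counts of members past the adjusted p stayed at 0 or within 1.5 times their value under the alternatives run, apart from hypoxia in ChMKO mice, where the count went from 0 to 1 (Synpo2) after rescaling. Medians near 0 changed sign when 1 library was left out: they lay between -0.02 and 0.10 for AAV, -0.10 and 0.03 for the knockout on the high-fructose diet, -0.17 and 0.15 for hypoxia in F/F, -0.13 and 0.11 for hypoxia in ChMKO and -0.29 and 0.04 for the diet in F/F. The Fhl1 difference for hypoxia in F/F mice was -0.0061 without the Hypo library in which Fhl1 was highest, with leave-one-out values up to 0.61. In SOL against GC the count was 6 to 8 over the alternatives and 7 to 8 over left-out libraries. Cnn1 passed there also with a pseudocount of 0.1 (1.53, adjusted p = 0.045) and with all groups in 1 fit (adjusted p = 0.012). The other medians kept their sign, between 0.08 and 0.38 for the knockout in normoxia, 0.14 and 0.37 in hypoxia, -0.11 and -0.01 in GC on chow and -0.34 and -0.14 in SOL, and 0 members were called in the AAV, knockout and diet comparisons. Single differences also moved, Acta2 in normoxia between 0.25 and 0.72, Myl9 in hypoxia between 0.43 and 0.77, Fhl1 on the high-fructose diet between -0.44 and -0.23, Fhl1 for hypoxia in ChMKO between 0.23 and 0.53 and Myl9 for the diet in F/F between -0.59 and -0.26.

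With the replicate number as a block, the C2C12 median was 0.58, the AAV count was 0 with a median of 0.03, and the SOL against GC count was 8 with a median of 1.01. The C2C12 numbers share only a number (r of -0.09 to 0.18). In SOL against GC without mouse 69, whose SOL title gives another number (r of its libraries -0.02), a setting added after the data had been seen, the blocked count was 6 with a median of 0.93. The block alone changed no call beside that of Cnn1, and without mouse 69 the call of Actg2 was lost as well (adjusted p = 0.060). Depth limited Cnn1 and Actg2 in GC, and the simulated recovery for SOL against GC was 53% at a log2 of 0.5.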
